A study of Mus musculus with 3143 samples.

Results

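The platelet-derived growth factor (PDGF) ligands and their receptors were followed across the cell classes of mouse glomeruli. The set holds 6 genes of the 46517 in the count table, taken by symbol: the ligand genes Pdgfa, Pdgfb, Pdgfc and Pdgfd and the receptor genes Pdgfra and Pdgfrb. Each symbol matched 1 gene of the table. PDGF ligands are secreted as dimers, and the receptors are tyrosine kinases that pair and phosphorylate one another when a dimer binds. PDGF-A and PDGF-C act mainly through PDGFR-alpha, PDGF-D through PDGFR-beta, and PDGF-B through either receptor. In the developing glomerulus, PDGF-B made by capillary endothelial cells acts on PDGFR-beta of mesangial cells, the contractile cells that hold the capillary loops together, and the same pathway is known for driving mesangial cell growth in glomerular disease.

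Kidneys came from adult C57BL/6 mice in 2 groups, IgAN (IgA nephropathy) and Control; how the disease was produced and how many animals gave cells are not stated in the labels. The glomerular fraction was digested with collagenase IV, pronase E and DNase I, and cells that took up the viability dye CellTracker CMFDA were sorted singly into 384-well plates. Smart-seq2, which copies full-length polyadenylated transcripts and attaches no molecular identifiers, was run on each cell. No animal is named in the labels. Each group therefore counts as 1 sample, and differences between groups carry no test. Whether plates of a group hold the same animals is not known, so spread between plates cannot stand for spread between animals. Every plate held cells of 1 group, and for this reason plate and group effects cannot be told apart.

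The table held 3143 cells, 1798 IgAN and 1345 Control, on 6 IgAN plates and 4 Control plates, with 50365 to 1135415 reads per cell (median 234207) and a median of 4683 genes detected. Cells were clustered without the 6 PDGF genes, and 3112 fell into 11 classes named from marker genes. Cell numbers differed between groups: 40 IgAN and 146 Control podocyte-like cells, 108 and 50 mesangial-like, 21 and 11 smooth muscle or renin cell-like, 1036 and 616 endothelial-like, and 48 and 24 parietal epithelial-like. IgAN plates 315 and 325 stood apart in 4 classes, the proximal tubule, distal tubule or collecting duct, macrophage or dendritic and T or NK cell classes, whose cells carried the most endothelial marker RNA on these plates. In proximal tubule-like cells the 11 endothelial markers summed to 5911 CPM (reads per 1000000 reads of the class) on plate 315 and 10288 CPM on plate 325, against 384 to 1085 CPM on the other plates. Mesangial-like cells did not share this pattern, with 4618 and 4928 CPM on these plates and 4594 to 5674 CPM on the others. Differences of PDGF genes in proximal tubule-like, macrophage or dendritic-like and T or NK cell-like cells are given with and without both plates.

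Levels are reads summed over the cells of a class and scaled to CPM, with exact 95% Poisson intervals in parentheses that cover counting error only. PCR copies of 1 molecule cannot be recognised without molecular identifiers, so these intervals are narrower than the true error. A single cell was counted as positive for a gene at 20 CPM or more. The limit was set above a single read because 38.5% of B cell-like cells, which should lack PDGFR-beta, had at least 1 Pdgfrb read, whereas 2 of the 143 reached 20 CPM. No limit between these was tried. For Pdgfb, 18.2% of B cell-like cells had a read and 0 reached 20 CPM.

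Pdgfb (chromosome 15, 79995874 to 80014977, minus strand, GRCm38), the ligand gene that serves glomerular endothelium as a signal to mesangium, was highest in mesangial-like cells at 141 CPM and next in endothelial-like cells at 96.6 CPM. These neighbours in the order do not differ beyond their spread: plates ran from 5.35 to 338 CPM in mesangial-like cells and from 71.2 to 121 CPM in endothelial-like cells. Endothelial-like cells were so numerous that they supplied 77.9% of all Pdgfb reads, from 52.6% of cells, and mesangial-like cells supplied 9.76%. Only 25.4% of endothelial-like cells were positive, so the ligand gene was detected in a minority of the class. Every other class lay between 1.14 CPM in B cell-like cells and 30.7 CPM in proximal tubule-like cells.

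**Figure D1:**
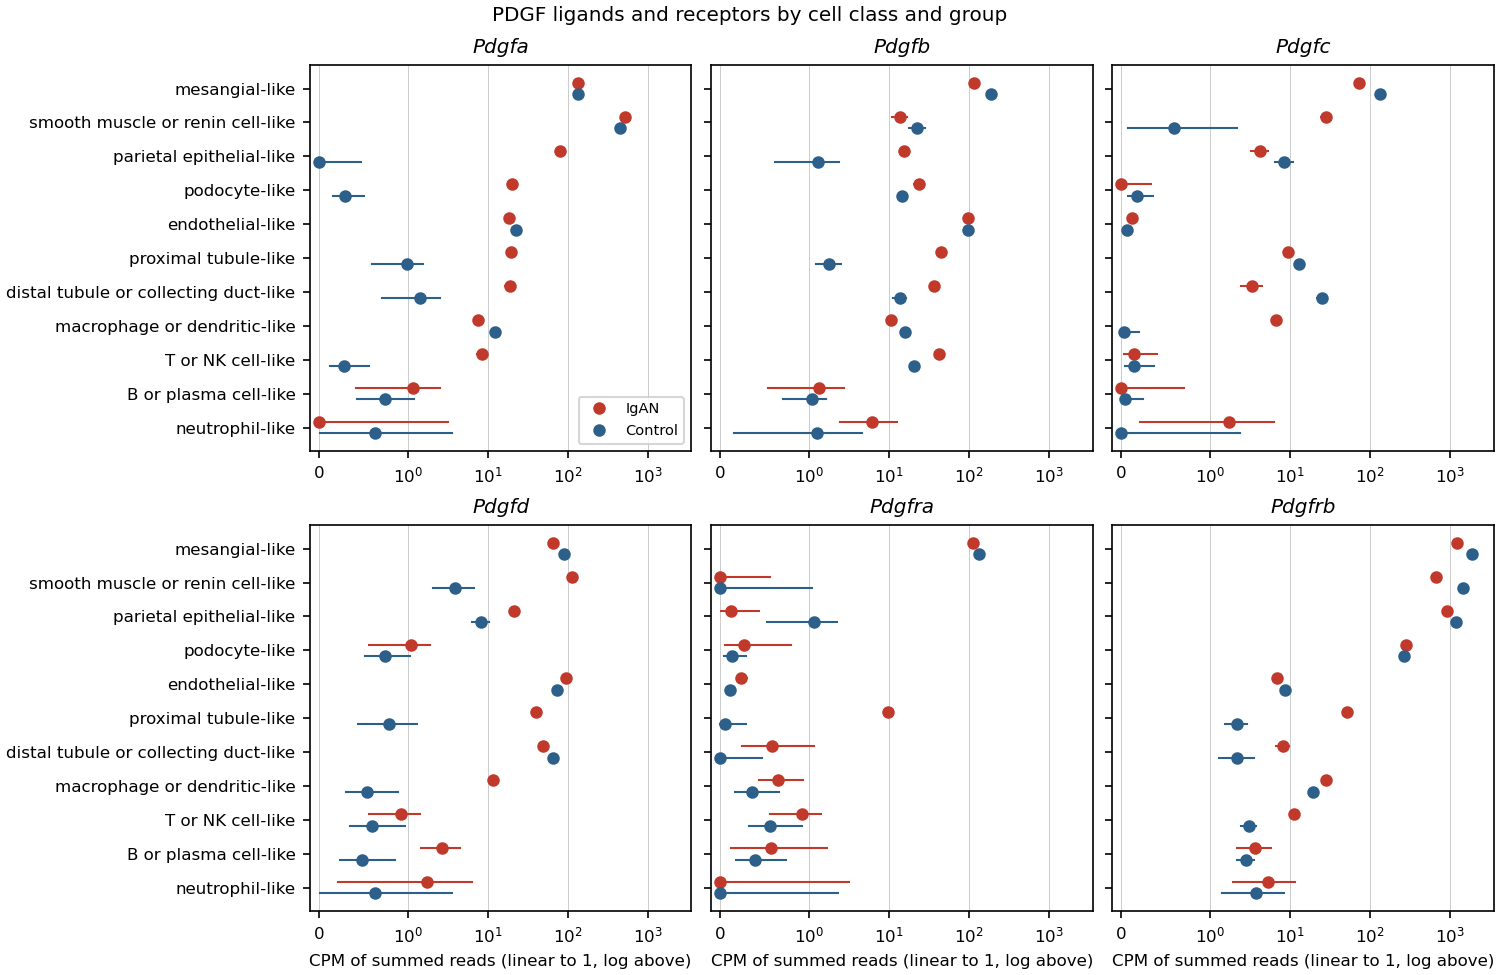
Level of each PDGF gene in CPM (axis linear to 1 CPM and logarithmic above) in each cell class, IgAN in red and Control in blue, with exact 95% Poisson intervals. Pdgfb and Pdgfd are high in endothelial-like and mesangial-like cells, Pdgfa is highest in smooth muscle or renin cell-like cells (490.5 CPM), and Pdgfra, highest in mesangial-like cells (120 CPM), reaches 9.76 CPM in IgAN proximal tubule-like cells and 1.17 CPM or less in the other classes.

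In endothelial-like cells Pdgfb stood at 96.5 CPM (95.3 to 97.7) in IgAN and 96.7 CPM (95.2 to 98.2) in Control. The IgAN plates gave 94.5, 77.8, 104, 113, 96.3 and 86.6 CPM on plates 313, 315, 316, 318, 322 and 325, and the Control plates 100.3, 121, 94.9 and 71.2 CPM on plates 314, 317, 321 and 326. The plates of the groups overlapped fully, with the lowest and the highest both in Control. The log2 difference, IgAN minus Control with 1 CPM added, was -0.00. The share of positive cells was 25.7% (266 of 1036) in IgAN and 24.8% (153 of 616) in Control.

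A size rule was applied over the whole gene table in place of a test: a gene was measured where it reached 10 CPM and 10% of cells of a class in 1 group, and it met the rule where its log2 difference was at least 1 in size and all plates holding 10 or more of its cells lay on one side of those of the other group. In endothelial-like cells 1.52% of 9690 measured genes met the rule. Of the PDGF genes, 3 were measured there (Pdgfa, Pdgfb and Pdgfd) and 0 met it.

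Pdgfd (chromosome 9, 6168584 to 6378850, plus strand), whose product is secreted in a latent form and freed by proteolysis, was highest in endothelial-like cells at 86.9 CPM. Smooth muscle or renin cell-like cells (75.6 CPM) and mesangial-like cells (73.8 CPM) followed, within the plate range of 52.5 to 124 CPM in endothelial-like cells. Endothelial-like cells supplied 83.1% of all Pdgfd reads, and 21.9% of them were positive. Distal tubule or collecting duct-like cells were listed at 55.1 CPM. In Control 3 of 44 of these cells were positive, and a single cell supplied 57.1% of the reads. In IgAN 14 of 67 were positive, and 367 and 239 of the 681 reads lay on plates 315 and 325. Endothelial markers in this class summed to 10000 and 8642 CPM on these plates, against 763 to 1316 CPM on the others. Their part in the result was not tested.

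In IgAN endothelial-like cells Pdgfd measured 96.0 CPM (94.9 to 97.2), and in Control 72.5 CPM (71.3 to 73.8). In the plate order above, values were 74.3, 100.1, 82.5, 85.4, 124 and 84.8 CPM on IgAN plates and, on Control plates, 99.7, 73.5, 52.5 and 56.6 CPM. All IgAN plates lay above 3 of the 4 Control plates, and Control plate 314 lay within the IgAN range. The log2 difference was 0.40, a ratio of 1.32, and the share of positive cells was 22.3% in IgAN and 21.1% in Control.

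Pdgfa (chromosome 5, 138976014 to 138997370, minus strand), a ligand gene known for epithelial and muscle sources, was low in the same cells, at 18.2 CPM in IgAN and 22.3 CPM in Control (log2 difference -0.28). Its IgAN plates ran from 14.2 to 21.8 CPM and its Control plates from 14.5 to 29.2 CPM, so the groups overlapped. Per kilobase of exon, which allows levels of different genes to be compared, endothelial-like cells held 27.6 CPM of Pdgfd, 23.2 CPM of Pdgfb, 6.34 CPM of Pdgfa and 1.38 CPM of Pdgfrb. Pdgfc and Pdgfra stayed at 0.0194 and 0.0190 CPM per kilobase.

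**Figure D2:**
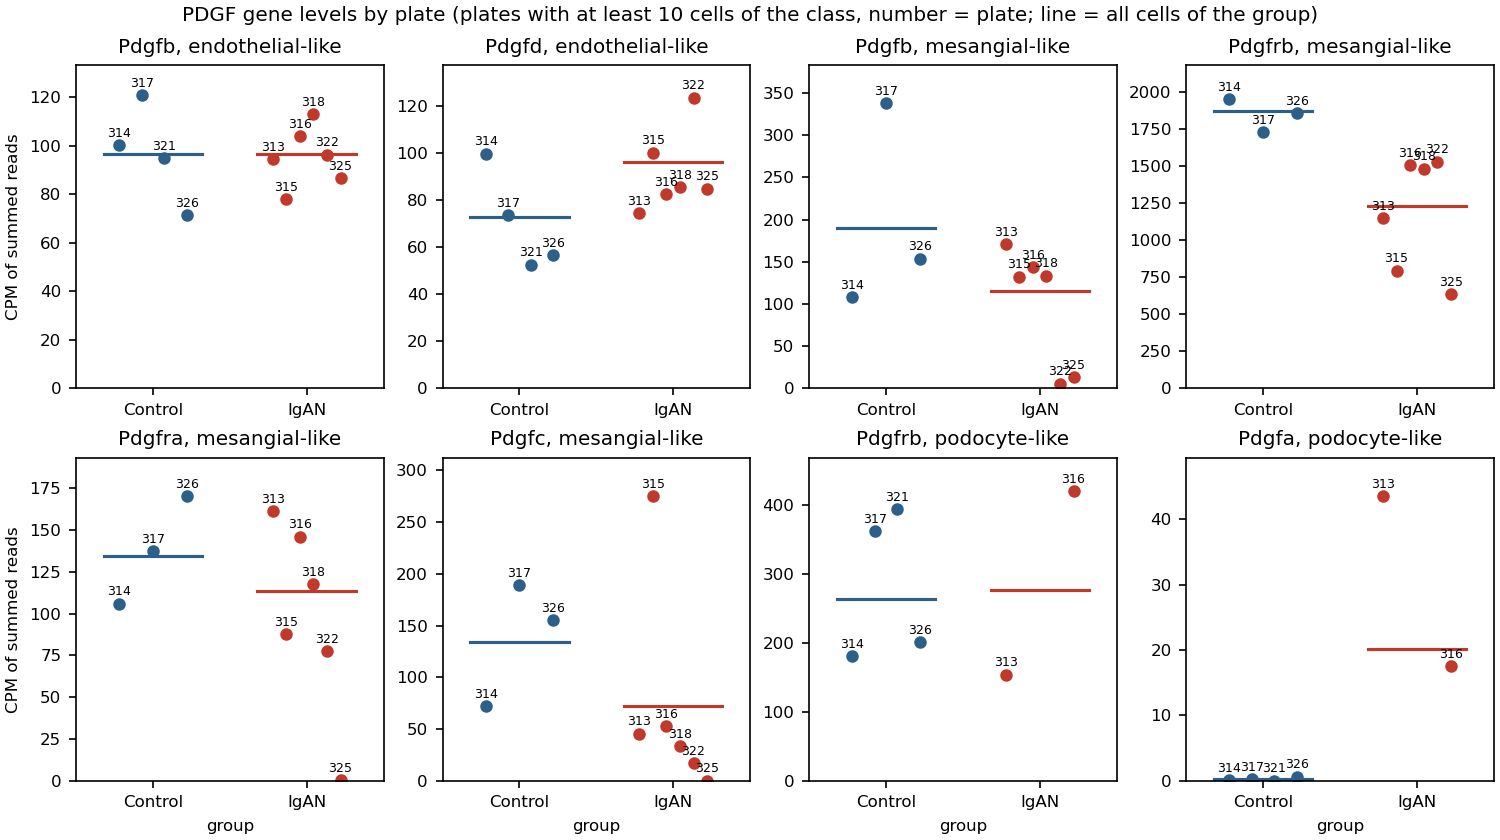
Level in CPM of 8 pairs of PDGF gene and cell class, with 1 point per plate holding at least 10 cells of the class, by group, and a line at the level over all cells of the group. Endothelial Pdgfb plates overlap between groups (71.2 to 121 CPM in Control), and mesangial Pdgfrb plates do not overlap (636 to 1527 CPM in IgAN, 1724 to 1950 CPM in Control).

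The receptor genes were nearly absent from endothelial-like cells. Pdgfrb measured 6.89 CPM in IgAN and 8.57 CPM in Control, and the mesangial markers in the same cells stood at 0.928% and 1.05% of their level in mesangial-like cells. The 21 IgAN endothelial-like cells that carried mesangial markers (at least 3 of them at 20 CPM or more) held 255 CPM of Pdgfrb, and the 1015 that did not held 2.89 CPM. In Control the 1 carrying cell held 2241 CPM and the other 615 held 4.45 CPM. Cells that also carried mesangial markers thus supplied 1107 of 1885 Pdgfrb reads in IgAN and 712 of 1480 in Control.

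Endothelial-like cells made up 5 clusters. Cluster 4, led by Fbln5, Fbln2 and Igfbp3, had the highest summed arterial or large-vessel markers (4227 CPM, against 1425 to 2151 CPM in the others) and the lowest summed glomerular capillary markers (2606 CPM, against 7007 to 8158 CPM). It also held the most Pdgfb: 175 CPM, against 77.6 to 94.6 CPM in clusters 2, 3, 8 and 9. Of its cells, 42.9% were positive. Within cluster 4, Pdgfb was 223 CPM in IgAN, with plates from 130 to 289 CPM, and 130 CPM in Control, with plates from 93.0 to 138 CPM.

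Pdgfd was close in clusters 4 and 8 (113 and 111 CPM), followed by cluster 9 with 88.0 CPM, cluster 2 with 72.9 CPM and cluster 3 with 64.7 CPM. Pdgfa was also highest in cluster 4 (28.5 CPM) and lowest in cluster 2 (13.9 CPM). The clusters divided unequally between groups. IgAN cells numbered 381, 14, 117, 279 and 245 in clusters 2, 3, 4, 8 and 9, and Control cells 91, 341, 109, 61 and 14. The class-wide values of IgAN and Control were therefore averages over different mixtures of clusters. In cluster 8, led by Gm20659, H19 and Lrrc8a, Pdgfd was 118 CPM in IgAN and 69.1 CPM in Control, and in cluster 3, led by Fgf1, Tbxa2r and Dll4, Pdgfb was 80.2 CPM in Control and 5.28 CPM in the 14 IgAN cells.

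**Figure D3:**
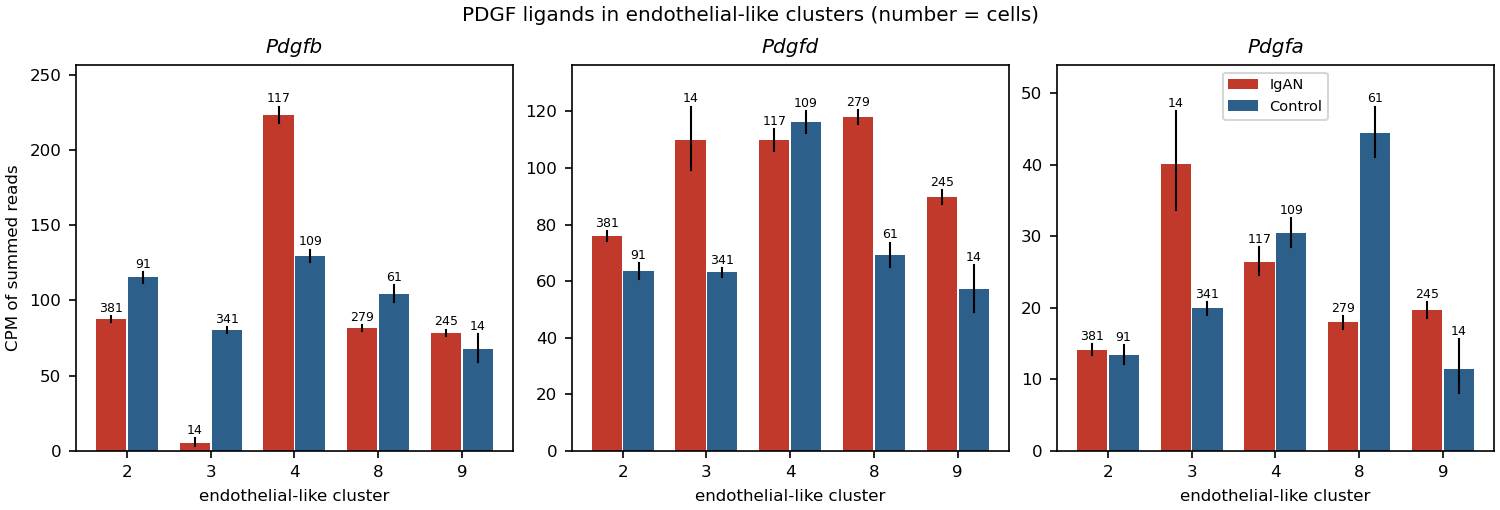
Pdgfb, Pdgfd and Pdgfa in CPM in the 5 clusters of endothelial-like cells, IgAN and Control bars with exact 95% Poisson intervals and the number of cells of each. Cluster 4, with the highest arterial or large-vessel marker sum, has the highest Pdgfb in both groups (223 CPM in IgAN, 130 CPM in Control).

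Pdgfrb (chromosome 18, 61045150 to 61085061, plus strand), the receptor gene of mesangial cells, pericytes and vascular smooth muscle, was highest in mesangial-like cells at 1444 CPM, where 139 of 158 cells (88.0%) were positive. Mesangial-like cells supplied 49.6% of all Pdgfrb reads. Parietal epithelial-like cells followed at 1005 CPM, then the smooth muscle or renin class at 931 CPM, both within the plate range of mesangial-like cells (636 to 1950 CPM). Podocyte-like cells came next at 266 CPM, below the lowest mesangial plate. Proximal tubule-like cells (35.5 CPM), macrophage or dendritic-like cells (25.0 CPM) and all others lay far lower.

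In mesangial-like cells Pdgfrb measured 1225 CPM (1212 to 1239) in IgAN and 1872 CPM (1848 to 1895) in Control. The IgAN plates gave 1147, 792, 1505, 1479, 1527 and 636 CPM on plates 313, 315, 316, 318, 322 and 325, and the Control plates 1950, 1724 and 1855 CPM on plates 314, 317 and 326. All IgAN plates lay below all Control plates, with plates 315 and 325 the lowest. The log2 difference was -0.61, and Control was 1.53 times as high. It missed the size rule, which 2.69% of 10250 measured genes met in these cells: all 6 PDGF genes were measured there and 0 met it. All IgAN plates below all Control plates, whatever the size, held for 2.02% of the same genes.

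The difference in Pdgfrb had the same sign without any 1 plate (log2 difference from -0.68 to -0.52) and without plates 315 and 325 together (-0.44). Pdgfrb was positive in 85.2% of IgAN cells (92 of 108) and 94% of Control cells (47 of 50). On plate 325, which supplied 13 mesangial-like cells, podocyte markers summed to 5522 CPM in these cells, against 237 to 587 CPM on the other plates; their part in the result was not tested.

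Pdgfra (chromosome 5, 75152292 to 75198215, plus strand), the receptor gene for PDGF-A and PDGF-C and a known gene of fibroblasts and other stromal cells, was found almost only in mesangial-like cells, which supplied 88.8% of its reads. Its level there was 120 CPM, and 53 of 158 cells (33.5%) were positive, of which 50 were also positive for Pdgfrb. Proximal tubule-like cells held 6.56 CPM, but 374 of their 382 reads lay on plate 325 (31.8 CPM), and the other plates ran from 0 to 0.659 CPM. Every other class held 0.722 CPM or less, and without plates 315 and 325 T or NK cell-like cells came next after mesangial-like cells, at 0.741 CPM. Per kilobase of exon, mesangial-like cells held 264 CPM of Pdgfrb and 12.0 CPM of Pdgfra, a ratio of 21.9. Smooth muscle or renin cell-like cells had 0 Pdgfra reads in 32 cells, where the exact 95% Poisson interval reaches 0.372 CPM.

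By group, mesangial Pdgfra stood at 113 CPM in IgAN and 134 CPM in Control, a log2 difference of -0.24. The IgAN plates gave 161, 87.8, 146, 118, 77.4 and 0.47 CPM in the plate order above, the last from 1 read on plate 325, and the Control plates 106, 137 and 170 CPM. Apart from plate 325 the groups overlapped. Positive cells were 32 of 108 (29.6%) and 21 of 50 (42%). The 6 fibroblast markers summed to 321 CPM in IgAN and 498 CPM in Control mesangial-like cells, with Lum and Dpt at 0 in both; no cluster was named fibroblast-like.

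The same cells also expressed the ligand genes. Mesangial Pdgfa was 133 CPM in IgAN and 135 CPM in Control, with IgAN plates at 113, 152, 87.2, 178, 61.0 and 275 CPM and Control plates at 108, 168 and 109 CPM. Its highest IgAN value came from plate 325, and the groups overlapped. Per kilobase of exon, mesangial-like cells held 42.9 CPM of Pdgfa, 33.9 CPM of Pdgfb, 23.4 CPM of Pdgfd and 18.3 CPM of Pdgfc.

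Mesangial Pdgfb was 116 CPM in IgAN and 190 CPM in Control, a log2 difference of -0.71. The share of positive cells was close, 33.3% (36 of 108) in IgAN and 32% (16 of 50) in Control. A single cell supplied 9.11% of the IgAN reads and another 15.6% of the Control reads. The IgAN plates gave 171, 132, 143, 133, 5.35 and 13.2 CPM and the Control plates 108, 338 and 154 CPM, so plates 322 and 325 were low and the other IgAN plates overlapped with Control. Of the 158 cells, 48 were positive for both Pdgfb and Pdgfrb. Endothelial markers summed to 5190 CPM in IgAN mesangial-like cells and 4773 CPM in Control, 27.9% and 25.1% of their level in endothelial-like cells, whereas Pdgfb stood at 120% and 197% of its endothelial level. Cells with more endothelial marker RNA held 267 CPM of Pdgfb in Control and 138 CPM in IgAN, and those with less held 105 and 95.1 CPM. By plate the order was different: endothelial markers were 4821 and 4928 CPM on plates 322 and 325, where Pdgfb was lowest, and 4618 and 4594 CPM on plates 315 and 326, where it was 132 and 154 CPM. The part of endothelial RNA in mesangial Pdgfb was not tested.

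Pdgfd in mesangial-like cells was 65.6 CPM in IgAN and 90.0 CPM in Control (log2 difference -0.45), at 68.3% and 124% of its endothelial level. On IgAN plates it measured 91.0, 130, 60.9, 36.4, 31.6 and 1.41 CPM, and on Control plates 143, 46.7 and 98.0 CPM. The plates overlapped, with plate 325 lowest.

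Pdgfc (chromosome 3, 81036416 to 81214040, plus strand), the other ligand gene whose product is secreted latent, came mostly from mesangial-like cells, which supplied 69.8% of its reads, at 93.2 CPM and with 25.3% of cells positive. The class of smooth muscle or renin cells followed at 18.8 CPM and the distal tubule or collecting duct class at 11.3 CPM, and endothelial-like cells held 0.0986 CPM. Mesangial Pdgfc was 72.3 CPM in IgAN and 134 CPM in Control, a log2 difference of -0.88. Plate values were 45.4, 275, 52.9, 33.5, 16.9 and 0 CPM in IgAN and, in Control, 71.8, 189 and 155 CPM. All IgAN plates except 315 lay below all Control plates. Without plate 315 the log2 difference was -1.92 and met the size rule. In that setting 3.79% of 10234 measured genes met it, against 2.69% with all plates. Without plates 315 and 325 together the log2 difference was -1.77, where 5.39% of 10110 measured genes met the rule.

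**Figure D4:**
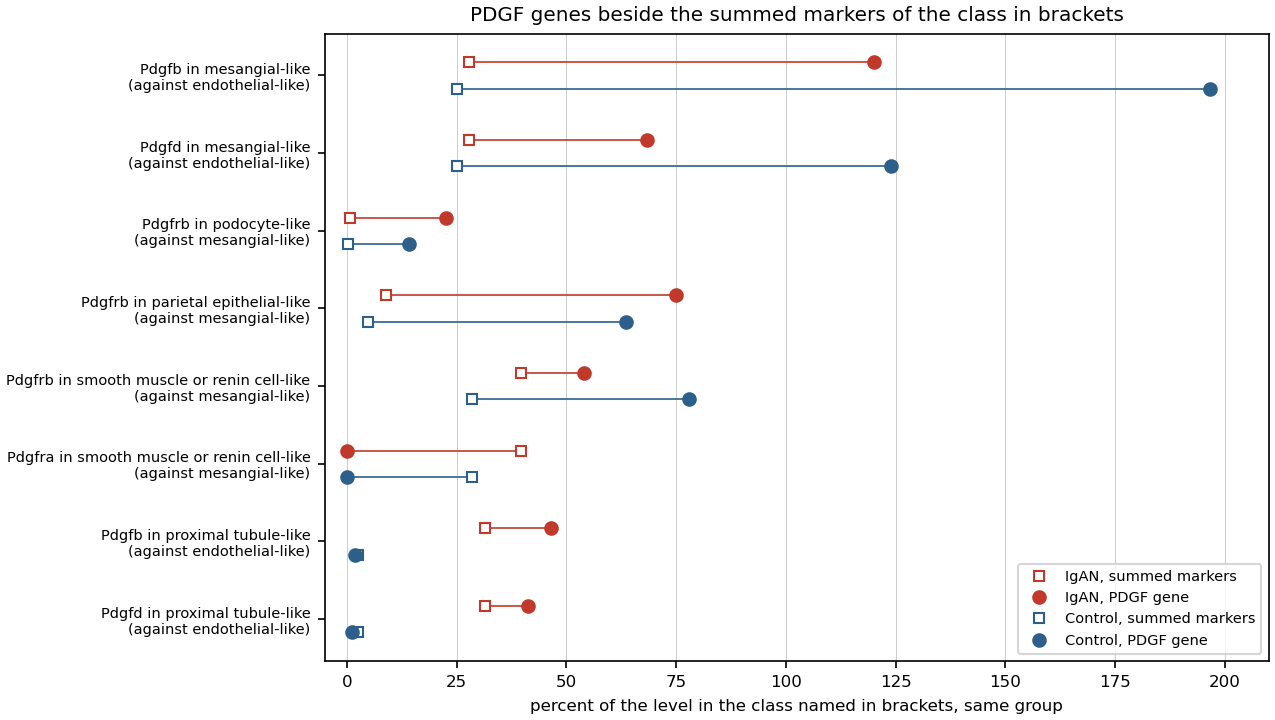
Level of a PDGF gene (circles) and of the summed markers of another class (squares) within a class, for selected pairs of gene and class. Both are percents of the level in that other class, named in brackets, in the same group, on a linear axis. IgAN is in red and Control in blue. In podocyte-like cells Pdgfrb stands at 22.6% and 14.1% of its mesangial level, where mesangial markers stand at 0.658% and 0.287%.

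Podocyte-like cells, the epithelial cells that cover the capillaries, held Pdgfrb at a larger share of the mesangial level than they held mesangial markers. It measured 277 CPM (267 to 287) in IgAN and 264 CPM (259 to 268) in Control, 22.6% and 14.1% of the mesangial level, whereas mesangial markers in these cells stood at 0.658% and 0.287% of theirs. In the podocyte-like cells that carried no mesangial markers, 39 IgAN and all 146 Control, Pdgfrb was 279 and 264 CPM. Positive cells were 24 of 40 (60%) and 68 of 146 (46.6%). IgAN plates 313 and 316 gave 154 and 420 CPM, and Control plates 314, 317, 321 and 326 gave 181, 362, 394 and 201 CPM, with full overlap and a log2 difference of 0.07.

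Pdgfa was the PDGF gene that met the size rule in podocyte-like cells, 1 of 3 measured, in a class where 10.0% of 9573 measured genes met it. It stood at 20.2 CPM (17.6 to 23.1) in IgAN and 0.295 CPM (0.157 to 0.505) in Control, a ratio of 68.5 and a log2 difference of 4.03. IgAN plates 313 and 316 gave 43.5 and 17.6 CPM (168 and 46 reads) and Control plates 0.144, 0.299, 0 and 0.626 CPM. IgAN plates 315, 318, 322 and 325, with 2, 6, 3 and 3 podocyte-like cells, gave 0, 7, 1 and 0 reads and did not enter the rule. The difference rested on 222 IgAN reads and 13 Control reads, and on 5 of 40 positive cells against 1 of 146; a single IgAN cell supplied 29.7% of the reads. Parietal epithelial markers stood at 16.0% of their own-class level in IgAN podocyte-like cells and 7.71% in Control, smooth muscle or renin cell markers at 1.83% and 0.198%, and fibroblast markers at 594 and 100 CPM; their part in the result was not tested. Without plate 313 the rule was not met.

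Pdgfb was the third PDGF gene measured in podocyte-like cells, at 23.6 CPM in IgAN and 14.6 CPM in Control (log2 difference 0.66, and -0.62 without plate 315). Pdgfc, Pdgfd and Pdgfra lay at or under 1.09 CPM in both groups.

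In the parietal epithelial-like class, named for the epithelium of Bowman's capsule, Pdgfrb was positive in most cells, 87.5% in IgAN (42 of 48) and 91.7% in Control (22 of 24), at 919 and 1189 CPM. The 3 IgAN plates with at least 10 cells gave 729, 912.5 and 1022 CPM, and no Control plate had 10. These levels were 75.0% and 63.5% of the mesangial ones, beside mesangial markers at 8.95% and 4.81%, and in the 40 IgAN and 23 Control cells that carried no mesangial markers Pdgfrb was 771 and 1153 CPM. On IgAN plates 313, 316 and 318, smooth muscle or renin cell markers in this class summed to 998, 2538 and 2295 CPM. Fibroblast markers summed to 564, 160 and 817 CPM on these plates. The part of both marker sets in the Pdgfrb level was not tested.

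Pdgfa differed between the groups of this class in detection. It was 78.9 CPM in IgAN, where 13 of 48 cells were positive, and had 0 reads in Control, where 0 of 24 cells allow a share of up to 14.2%. The IgAN level was 203 times the level that 3 reads would give in Control. This is not a lower limit, because the exact Poisson interval of the Control level reaches 0.478 CPM and covers counting error only. By share of positive cells the difference may be much smaller, with 27.1% in IgAN against the Control limit of 14.2%. Positive IgAN cells came from plates 313, 315, 316 and 318 (3 of 11, 2 of 7, 5 of 13 and 3 of 10 cells), and 1 cell supplied 27.6% of the reads. Smooth muscle or renin cell markers stood at 15.0% of their own-class level in IgAN and 12.4% in Control parietal epithelial-like cells. With no Control plate of 10 cells, the spread between plates is not known here.

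Smooth muscle or renin cell-like cells, led by Rgs5, Ren1, Akr1b7, Myh11 and Acta2, held by far the most Pdgfa: 490.5 CPM over both groups, with 84.4% of cells positive and 21.7% of all Pdgfa reads from 1.02% of cells. The next class, mesangial-like cells, stood at 134 CPM. Per kilobase of exon, Pdgfa at 157 CPM came close to Pdgfrb at 170 CPM in these cells. By group, Pdgfa was 512 CPM in IgAN (18 of 21 cells) and 449 CPM in Control (9 of 11 cells).

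In this class no plate had 10 cells, so the following values describe 21 IgAN and 11 Control cells only. Pdgfrb was 663 CPM in IgAN (15 of 21 cells, 71.4%) and 1458 CPM in Control (11 of 11 cells), with Control 2.20 times as high. Pdgfd was 112 CPM in IgAN (10 of 21 cells) and 3.88 CPM in Control (1 of 11 cells), a ratio of 28.9, and 9 of the 10 positive IgAN cells came from plates 313 and 316. Mesangial markers stood at 39.7% and 28.5% of their own-class level in these cells, beside Pdgfrb at 54.1% and 77.9%; their part in the result was not tested.

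**Figure D5:**
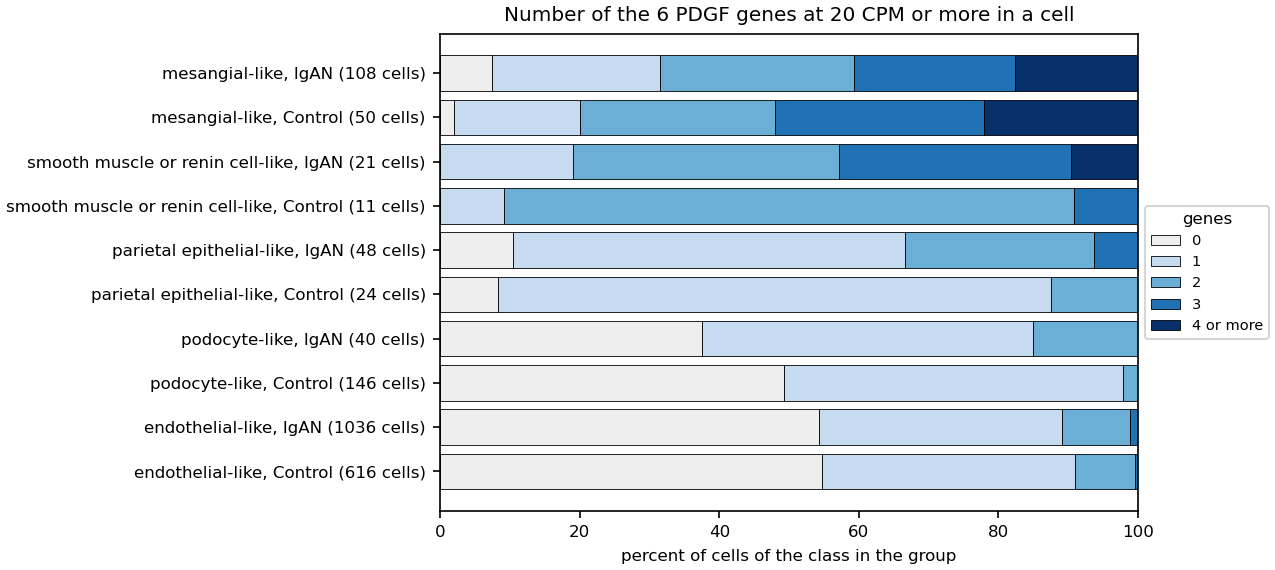
Share of cells with 0, 1, 2, 3 or at least 4 of the 6 PDGF genes at 20 CPM or more, by class and group. Mesangial-like cells most often hold several (44 of 158 hold 2 and 40 hold 3), and 54.4% of endothelial-like cells hold none.

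Single mesangial-like cells combined several PDGF genes: 9 of 158 held none at 20 CPM, 35 held 1, 44 held 2, 40 held 3 and 19 held 4. Those with none had a median of 137977 reads and those with 4 a median of 319306, so the number moved with depth. In endothelial-like cells 899 (54.4%) held none, 586 (35.5%) held 1, 153 (9.26%) held 2 and 14 held 3. Pdgfb and Pdgfd were both positive in 109 endothelial-like cells (6.60%).

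Over both groups, tubule and leukocyte classes held less of each PDGF gene than mesangial-like cells, and several of their values rested on IgAN plates 315 and 325. In proximal tubule-like cells, 9.50% of 10533 measured genes met the size rule, 761 higher and 240 lower in IgAN; with the groups scaled by the median of ratios over genes in place of total reads these were 636 and 371. Of 4 measured PDGF genes 1 met it, Pdgfrb, at 51.9 CPM in IgAN and 2.14 CPM in Control. Its IgAN plates gave 12.2, 4.36, 9.55 and 150 CPM on plates 315, 316, 318 and 325 and its Control plates 2.06, 1.84 and 2.37 CPM.

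The log2 difference of proximal tubule Pdgfrb was 4.07, and 0.96 without plates 315 and 325. Pdgfb (44.9 and 1.78 CPM), Pdgfd (39.6 and 0.784 CPM) and Pdgfa (19.7 and 0.993 CPM) were also higher in IgAN, with overlapping plates; without plates 315 and 325 their log2 differences were 0.56, 0.57 and 0.76, from 4.05, 4.51 and 3.38. Endothelial markers in these cells stood at 31.5% of their own-class level in IgAN and 2.55% in Control, and mesangial markers at 1085 CPM on plate 325 against 21.1 to 90.9 CPM elsewhere.

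In macrophage or dendritic-like cells 1.24% of 9726 measured genes met the rule, and of 4 measured PDGF genes 0 did. Pdgfb stood at 10.6 CPM in IgAN and 15.9 CPM in Control, Pdgfa at 7.48 and 12.4 CPM, Pdgfd at 11.6 and 0.537 CPM, and Pdgfrb at 28.3 and 19.6 CPM. Without plates 315 and 325 the Pdgfrb log2 difference turned from 0.51 to -1.87, and that of Pdgfd went from 3.04 to 0.42. That of Pdgfa went from -0.66 to -2.79 and that of Pdgfb from -0.54 to -2.64. Control values rested on few cells: 4, 6 and 3 of 99 were positive for Pdgfa, Pdgfb and Pdgfrb. A single cell supplied 44.7%, 32.5% and 45.2% of the Control reads of these genes. Pdgfrb was positive in 2 of 28 IgAN cells on plate 316 and 5 of 24 on plate 318. None were positive on plates 313 and 322.

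In T or NK cell-like cells 1.76% of 9442 measured genes met the rule, and of 2 measured PDGF genes, Pdgfb and Pdgfrb, 0 did. Pdgfb was 42.8 CPM in IgAN and 20.4 CPM in Control (log2 difference 1.04). The IgAN plates gave 57.0, 69.2, 125, 2.23, 26.5 and 29.8 CPM and the Control plates 19.2, 22.1, 5.23 and 37.5 CPM, with overlap. In the NK cell cluster (58 IgAN and 44 Control cells) Pdgfb was 44.8 CPM in IgAN and 57.4 CPM in Control. In the T cell cluster (32 and 83 cells) it was 39.9 and 0.919 CPM. These values rested on few cells: over the whole class, 9 of 90 IgAN and 5 of 127 Control cells were positive for Pdgfb. A single cell supplied 21.1% of the IgAN reads and another 24.0% of the Control reads. Pdgfrb was 11.2 CPM in IgAN and 3.05 CPM in Control, with 123 CPM on plate 325 and 1.89 to 6.69 CPM on the other IgAN plates. Without plates 315 and 325 the log2 difference went from 1.59 to 0.02 for Pdgfrb and from 1.04 to 0.94 for Pdgfb. Endothelial markers stood at 6.85% and 3.69% of their own-class level; their part in the result was not tested.

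The other genes of the pathway were taken from 5 lists of textbook members. The 7 proteases that free or mature the ligands include Plat, whose product activates PDGF-CC, and Plau, whose product activates PDGF-DD. In endothelial-like cells Plat was abundant (2936 CPM in IgAN, 2946 CPM in Control), ahead of Pcsk5 (98.4 and 129 CPM). Podocyte-like cells held 2700 and 3616 CPM of Plat, and mesangial-like cells 270 and 281.5 CPM of Plat and 233 and 86.7 CPM of Plau. The protease genes that met the size rule, both higher in IgAN, were Furin in mesangial-like cells (76.7 and 10.7 CPM, 1 of 5 measured) and Pcsk6 in podocyte-like cells (629 and 237 CPM, 1 of 5 measured). The share over all measured genes was 2.69% in the former class and 10.0% in the latter, so counts this small say little about the list.

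Of the 7 ligand binders and co-receptors, Sparc and Nrp1 were the most abundant in all 3 glomerular classes. Sparc, a matrix protein that binds PDGF-B, stood at 3666 and 3794 CPM in endothelial-like cells and 3727 and 4081 CPM in mesangial-like cells, and at 4351 and 3846 CPM in podocyte-like cells. Nrp1 stood at 1933 and 2207 CPM, 1953 and 2167 CPM, and 315 and 323 CPM in the same classes. The rule was met by Ndst1, a heparan sulfate sulfotransferase, in podocyte-like cells (116 and 49.2 CPM, 1 of 5 measured, beside 10.0% of all genes) and by 0 of 4 genes in endothelial-like and 0 of 6 in mesangial-like cells.

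Among the 17 adaptors and enzymes that act close to the receptors, the scaffold gene Slc9a3r2 led in endothelial-like (2075 and 2347 CPM), podocyte-like (1141 and 1088 CPM) and mesangial-like cells (486 and 478 CPM). Plcg1 followed in endothelial-like cells (375 and 433 CPM), Pik3r1, the regulatory subunit of PI3-kinase, in mesangial-like cells (460.0 and 574 CPM) and Shc1 in podocyte-like cells (146 and 92.9 CPM). In podocyte-like cells 2 of 16 measured met the rule: Pik3r1 was higher in IgAN (84.1 and 13.4 CPM) and Slc9a3r1 lower (58.5 and 173 CPM), a share near the 10.0% of all measured genes. None of the 17 measured in mesangial-like cells or the 15 in endothelial-like cells met it.

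The 6 phosphatases and ubiquitin ligases that end receptor signalling were led by Ptpn1, at 115.5 and 129 CPM in endothelial-like and 166 and 119.7 CPM in podocyte-like cells, and by Cblb in mesangial-like cells (227 and 95.0 CPM, beside Ptpn1 at 135 and 123 CPM). Acp1 came second in endothelial-like (66.4 and 60.9 CPM) and podocyte-like cells (134.5 and 79.0 CPM). The ubiquitin ligase gene Cbl met the rule in podocyte-like cells, 1 of 6 measured beside 10.0% of all genes, at 0.182 CPM in IgAN and 15.9 CPM in Control. None of the 5 measured in mesangial-like or in endothelial-like cells met it.

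Fos and Egr1, immediate early genes listed here as downstream of the receptors, were the most abundant of the 8 downstream transcription factor genes. In podocyte-like cells both met the rule, 2 of 7 measured, where 10.0% of all measured genes met it (368 higher and 592 lower in IgAN), and both were lower in IgAN: Fos at 320 and 1088 CPM and Egr1 at 113 and 755 CPM. In mesangial-like cells Fos stood at 1026 and 1139 CPM and Egr1 at 494 and 739 CPM, and in endothelial-like cells at 3520 and 3833 CPM and at 1835 and 1212 CPM, with overlapping plates. None of the 8 measured in mesangial-like cells or the 7 in endothelial-like cells met the rule. Receptor activity was not measured, and all cells had been digested with enzymes. The parts of PDGF signalling and of digestion in the levels of Fos and Egr1 were not tested.

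In proximal tubule-like cells 6 pathway genes met the rule, all higher in IgAN, where 9.50% of all measured genes met it and 761 of those 1001 were higher. They were the binders Sparc (1293 and 85.3 CPM), Hspg2 (82.6 and 3.29 CPM) and Lrp1 (24.9 and 0.731 CPM), 3 of 6 measured, the adaptors Grb2 (35.2 and 11.0 CPM) and Shc1 (106.5 and 45.7 CPM), 2 of 17 measured, and the transcription factor gene Stat3 (142 and 35.3 CPM), 1 of 7 measured. Sparc and Hspg2 code for matrix proteins that vessels and glomeruli make, and the endothelial and mesangial markers in these cells are given above; their part in the result was not tested. Without plates 315 and 325, Sparc (264 and 85.3 CPM), Hspg2 (58.9 and 3.29 CPM) and Stat3 (204 and 35.3 CPM) still met the rule. Lrp1 (3.01 and 0.731 CPM), Grb2 (12.9 and 11.0 CPM) and Shc1 (87.7 and 45.7 CPM) did not. In that setting 2 IgAN plates were left, and 13.0% of 9164 measured genes met the rule, 735 higher and 453 lower in IgAN. None of the proteases, phosphatases or ligases met the rule with all plates, and no pathway gene met it in macrophage or dendritic-like or in T or NK cell-like cells.

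The median log2 difference of each list was set beside that of all measured genes. In mesangial-like cells it was 0.17 for the proteases, 0.18 for the binders, 0.02 for the adaptors, 0.45 for the phosphatases and ligases and 0.37 for the transcription factors, beside 0.00 over all genes. In endothelial-like cells the medians were -0.09, 0.06, -0.12, 0.12 and 0.31 beside 0.01, and in podocyte-like cells 0.26, 0.18, 0.06, 0.15 and -0.83 beside -0.06. The list furthest from the background was that of the transcription factors in podocyte-like cells, with 2 of 7 above 0.

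Genes with the most similar pattern were found over 64 units of class by plate from 9 classes, among 14021 genes, by Pearson correlation of log2 levels. Each unit held at least 10 cells. Smooth muscle or renin cell-like cells, where Pdgfa was highest, neutrophil-like cells and Control parietal epithelial-like cells therefore gave no unit. Units share plates and depth, so the correlations are descriptions. Pdgfrb was most like Ctgf (0.91), Aldh1a2 (0.90) and Mmp2 (0.90), and Pdgfra most like Ccdc42 (0.97), Avpr1a (0.94) and Paqr6 (0.93). Pdgfd was most like Snai2 (0.91), Ecscr (0.91) and Esam (0.90), of which Esam is an endothelial marker used to name the class.

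For the other ligand genes the likeness was lower. Pdgfa was most like Nid1 (0.84), Osmr (0.83) and Arhgef25 (0.83), Pdgfc most like Ccdc42 (0.78), Paqr6 (0.76) and Bcas1 (0.76), and Pdgfb most like Sept7 (0.73), Exoc3l (0.71) and Ehd3 (0.71), the last also an endothelial marker. Ccdc42 and Paqr6 were thus among the closest genes of both Pdgfc and Pdgfra. Between PDGF genes the highest correlation was that of Pdgfc with Pdgfra (0.74) and the lowest that of Pdgfb with Pdgfrb (0.24).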

How the data were processed

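The deposited table holds raw counts of reads per gene and cell, made by the authors; featureCounts, Subread (1.4.6-p5), TopHat2 (2.1.1), SAMtools (0.1.18) and the build GRCm38 are named, per the submitters' processing notes. The annotation behind the counts is not given in the sources used here, and coordinates and exon lengths were read from a GRCm38 annotation by gene symbol. Groups and plates come from the labels. Cells with at least 10000 reads and 500 genes were kept (all 3143), and 0 cells repeated the counts of another.

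Counts were scaled, and 2000 variable genes, without the 6 PDGF genes, gave 30 principal components, 15 neighbours and 20 Leiden clusters at resolution 1 (scanpy 1.11.5, leidenalg 0.10.2, Python 3.11.15). Clusters were named from marker lists, and 23 cells stayed unnamed. No doublet caller was run, and cells carrying markers of a second class were kept (an alternative leaves them out). After the data were seen, 8 Control cells carrying platelet markers were set aside before naming, since under the naming rule as first written a few of them left cluster 3 unnamed, and the analyses without plates 315 and 325 were added. Reads were summed by class and group to CPM, with 1 CPM added for log2 differences; the code was tested on simulated data. Intervals are exact 95% Poisson or Clopper-Pearson intervals (scipy 1.17.1). Named genes are the 6 PDGF genes, pathway genes that met the size rule or were the 2 most abundant of a list, and the 3 most similar genes per PDGF gene. The members and lists were chosen with earlier results of these data known.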

Additional observations from a re-analysis of the deposited data

Results flagged for a closer look

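Of 31 groups of 4 or 6 plates examined with Dixon's criterion at 95%, 5 held 1 plate far from the others, where chance gives about 1 in 20. Each was an IgAN plate, and each was plate 315 or 325. On plate 315, Pdgfc was 275 CPM in mesangial-like cells, and in macrophage or dendritic-like cells Pdgfa was 21.4 CPM and Pdgfrb 75.9 CPM. On plate 325, Pdgfrb was 150 CPM in proximal tubule-like cells and 123 CPM in 11 T or NK cell-like cells, of which 4 were positive. Endothelial markers in macrophage or dendritic-like cells summed to 3856 CPM on plate 315 and 2043 CPM on plate 325, against 534 to 1064 CPM on the other plates, and mesangial markers in proximal tubule-like cells to 1085 CPM on plate 325; their part in these values was not tested.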

How the results depend on the processing

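Of 399 alternative values for 22 differences of PDGF genes between groups, 374 kept their side of the size rule and moved by less than the spread (1 SD) between plates, and 362 kept their sign. Podocyte Pdgfa (log2 difference 4.03) was 2.25 with 5 CPM added and 2.73 to 4.27 leaving out 1 plate at a time. Mesangial Pdgfc (-0.88) ranged from -1.92 to -0.58, and was -1.77 without plates 315 and 325. Endothelial Pdgfb (-0.00) was -0.25 under the naming rule as first written. Proximal tubule Pdgfrb (4.07) was 4.08 with cells of at least 100000 reads and 2000 genes, where plates overlapped, 0.96 without plates 315 and 325, and 1.72 to 4.70 leaving out 1 plate. The number of genes meeting the rule was 960 in podocyte-like cells (418 at a 50 CPM minimum; 970 to 1898 leaving out 1 plate), 276 in mesangial-like (154; 545 without plates 315 and 325; 280 to 685), 147 in endothelial-like (71; 252 with no filter; 163 to 222), 1001 in proximal tubule-like (490; 1001 to 2025), 121 in macrophage or dendritic-like (56; 194 with no filter; 250 without plates 315 and 325; 158 to 250) and 166 in T or NK cell-like cells (79; 254; 350; 224 to 288). Leaving out cells that carried markers of a second class removed the classes themselves: 0 mesangial-like, 0 smooth muscle or renin cell-like and 1 parietal epithelial-like cells were left, and 5 IgAN and 7 Control macrophage or dendritic-like cells. Among the classes that kept 10 cells, the highest was macrophage or dendritic-like for Pdgfa (53.7 CPM) and Pdgfc (74.1 CPM), endothelial-like for Pdgfb (95 CPM), T or NK cell-like for Pdgfra (0.972 CPM) and podocyte-like for Pdgfrb (292 CPM). No paired analysis was possible because the labels carry no replicate numbers and each group is 1 sample. Few cells limit precision in some classes: smooth muscle or renin cell-like cells number 11 in Control and neutrophil-like cells 8 in IgAN.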
